A study of Mus musculus with 12 samples.

Results

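The expression of 10 genes for metabolic nuclear receptors and their coactivators was examined in colon RNA from 12 mice, 6 whose intestinal epithelium lacked Pck1 and 6 controls. The genes were chosen by name: 7 receptors (Ppara, Pparg, Hnf4a, Nr1h4, Vdr, Nr1i2 and Esrra) and 3 coactivators (Ppargc1a, Ppargc1b and Pnrc1), 10 of the 21899 genes in the table. The labels call the controls littermate controls, and the library names give the 2 genotypes as CKO (knockout) and WT (control). All 12 mice, controls included, had been given 2.5% DSS (dextran sulfate sodium, which damages the colonic epithelium and provokes colitis) over 7 days, and no mice without DSS were used here. No source used here names the Cre driver of the deletion or the strain, age or sex of the mice. The RNA came from colon tissue, not from sorted cells, so a level combines epithelium, immune cells, stroma and muscle. In such libraries fewer cells of a type and less RNA per cell cannot be told apart.

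Nuclear receptors are transcription factors that a small lipid-like molecule can switch on inside the cell. PPARα (Ppara) and PPARγ (Pparg) respond to fatty acids, FXR (Nr1h4) to bile acids, the vitamin D receptor (Vdr) to active vitamin D and PXR (Nr1i2) to drugs and steroids, each as a partner of an RXR receptor. HNF4α (Hnf4a) keeps the intestinal epithelium differentiated, and ERRα (Esrra) drives genes of mitochondrial respiration. PGC-1α (Ppargc1a) and PGC-1β (Ppargc1b) bind such receptors and raise the transcription of their targets, and PNRC1 (Pnrc1) is a small proline-rich protein that binds many nuclear receptors as a coactivator. PGC-1α with HNF4α is a known driver of Pck1 transcription in liver.

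The promoters of Pnrc1, the gene that passed the test here, and Ppargc1a, the gene with the largest difference in the other direction, are shown for reference, as the 250 bases before the RefSeq start, 5′ to 3′ (RefSeq, build GRCm38.p6). The Pnrc1 window lies at chr4:33248788-33249037 and the Ppargc1a window at chr5:51567726-51567975, both on the minus strand. Capitals mark every match to 7 short motifs that were searched on both strands.
Pnrc1: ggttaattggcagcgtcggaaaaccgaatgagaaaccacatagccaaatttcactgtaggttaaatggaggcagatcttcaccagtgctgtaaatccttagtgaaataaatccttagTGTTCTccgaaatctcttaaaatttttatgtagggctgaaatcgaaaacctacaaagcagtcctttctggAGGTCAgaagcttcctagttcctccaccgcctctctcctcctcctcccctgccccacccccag
Ppargc1a: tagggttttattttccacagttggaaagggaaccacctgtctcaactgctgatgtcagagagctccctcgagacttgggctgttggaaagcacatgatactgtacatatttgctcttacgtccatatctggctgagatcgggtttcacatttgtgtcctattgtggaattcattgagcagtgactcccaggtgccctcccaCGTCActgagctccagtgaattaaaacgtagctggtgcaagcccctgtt
The Pnrc1 window held 1 match to AGGTCA, the core element that many nuclear receptors bind, which 14.0% of 32851 RefSeq windows of the same length also held. It held 1 match, on the opposite strand, to AGAACA, the core element of the glucocorticoid receptor, which 16.1% of all windows held. The Ppargc1a window held 1 match, also on the opposite strand, to TGACG, the core of a cAMP response element, which 17.8% of all windows held. These letters are therefore common before genes. Of the 10 genes 9 were matched in the promoter table, with 12 windows in all. The nuclear receptor core element was also found before Pparg and Nr1h4, and the cAMP core element before Ppara. None of the 12 windows held the full cAMP response element TGACGTCA, which contains the cAMP core and was present in 1.55% of all windows. None held the ERR element TCAAGGTCA, which contains the nuclear receptor core and was present in 0.387% of all windows. The E-box CACGTG (6.02% of all windows) was in none of them, nor was the forkhead element spelled GTAAACA (3.17% of all windows). A match is a description of the letters, and no binding was measured.

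Total counts ranged from 15348192 to 18211663 in the knockout and from 15881625 to 19138507 in the control libraries. Levels below are CPM, read counts scaled to library size with edgeR's TMM factors, and n is 6 mice a genotype. Pck1 averaged 4.19 ± 2.10 CPM in knockouts and 53.0 ± 17.8 CPM in controls (SD), and the highest knockout (7.32 CPM) was below the lowest control (34.5 CPM). The 12 epithelial markers were present in all libraries, and 11 of them had a log2 fold change below 0 (median -0.21, 0 passing the test). Their mean log2 CPM ran from 8.67 to 8.91 in the knockout and from 8.68 to 9.18 in the control, and their summed level from 8718 to 9562 and from 8837 to 12872 CPM. The 12 neutrophil markers were all above 0 (median 1.94, 0 passing), with summed levels of 296 to 1488 CPM among knockouts and 144 to 649 CPM among controls. Lists of other cells gave medians of 0.43 for macrophage, 0.64 for fibroblast, 0.60 for endothelial, 0.63 for neuron and glia and -0.37 for smooth muscle genes. The median was -0.22 for T and B lymphocyte genes and -0.065 for fat cell genes without Pck1. Exocrine pancreas genes were present in unequal amounts, from 41.4 to 34872 CPM summed over 10 genes, with overlap between the genotypes. The parts of these cell types in the results below were not tested. The epithelial level was also added to the model, but it comes from the same libraries and 11 of its 12 markers were below 0. That fit therefore cannot tell fewer epithelial cells from less RNA per cell. 2 libraries stood apart: knockout replicate 4 had the lowest fibroblast and endothelial and the highest epithelial marker level of the knockouts, and control replicate 4 the highest neutrophil level of the controls. They were not the only such libraries: control replicate 6 had the lowest epithelial and the highest fibroblast and endothelial level of the controls, and knockout replicate 2 the lowest epithelial and the highest neutrophil, fibroblast and endothelial level of the knockouts. Results are also given without both replicates 4, a choice that widens the difference between genotypes for many genes.

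All 10 genes had enough counts to be tested. Pnrc1 rose in the knockout and the other 9 did not pass: 1 of 10 was called higher and 0 of 10 lower by the quasi-likelihood test of edgeR, with p-values adjusted by Benjamini-Hochberg over 14393 genes. Over all tested genes 0.0278% were called higher and 0.0278% lower, 0.0556% in all. At an unadjusted p under 0.05 there were 1 higher and 4 lower genes of 10, where the shares over all tested genes were 13.1% and 9.48% (22.6% in either direction). The genotypes did not overlap for 1 of 10 genes, against 1.52% of all tested genes. The log2 fold change was below 0 for 8 of 10 genes (54.9% of all tested genes) and above 0 for 2 (45.1%), and the median was -0.30 against -0.028 over all tested genes. The 10 genes were chosen with earlier results of these data known, so these counts are a description.

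**Figure D1:**
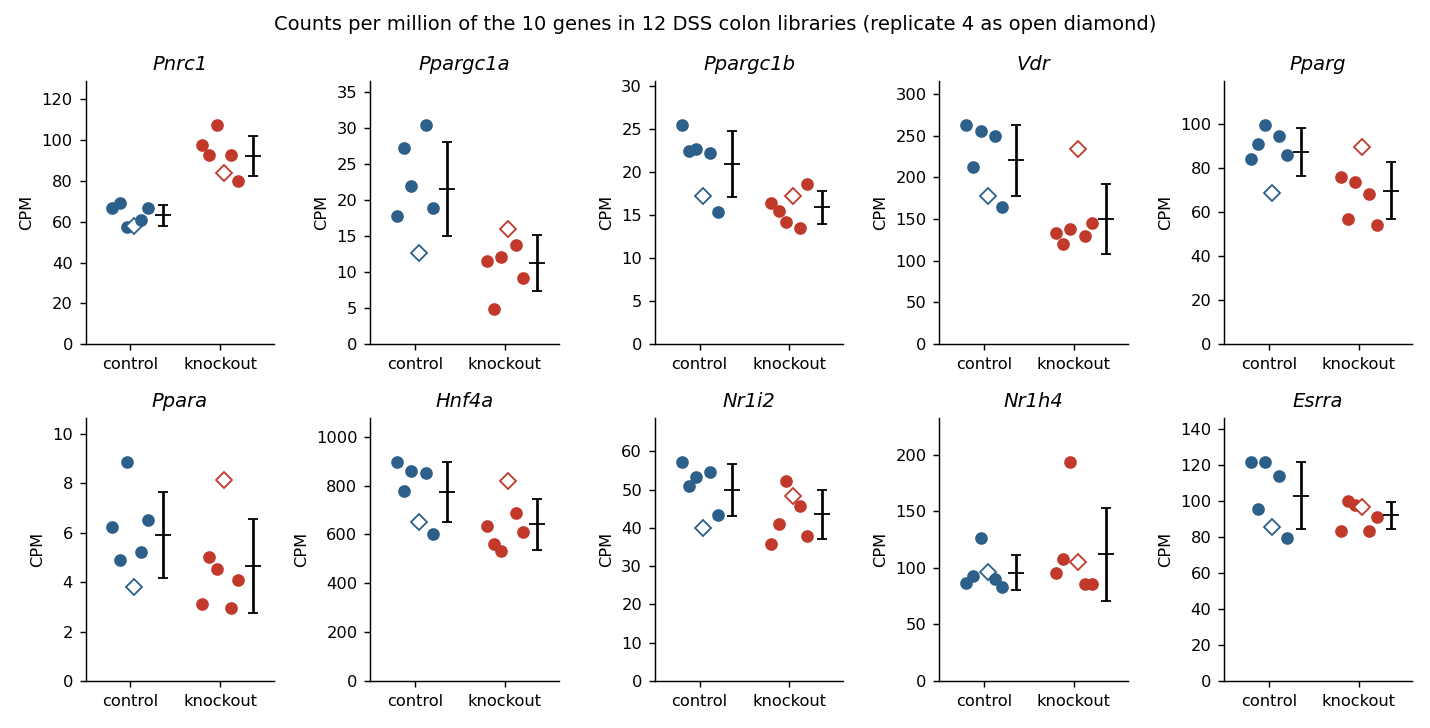
Level of each of the 10 genes in CPM (vertical axes, from 0) in 6 control (blue) and 6 knockout (red) libraries, with replicate 4 of each genotype as an open diamond and mean ± SD beside the points. The 6 knockout points of Pnrc1 lie above the 6 control points. For Ppargc1a, Vdr, Pparg, Ppara and Hnf4a the knockout diamond is the highest knockout point.

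Per gene length, Hnf4a was the most abundant of the 10. Its level in TPM, the authors' length-scaled unit, was 327 to 494 over the 6 controls, with a median of 424 TPM, and no other gene's control range reached it. The control medians of Vdr, Esrra, Pparg, Nr1h4 and Pnrc1 came next at 92.8, 87.3, 85.3, 83.0 and 69.0 TPM. Each of these 5 overlapped its neighbour in the order, so their order is not resolved by the spread between mice. Nr1i2 stood apart below them, at 29.4 to 41.5 TPM. The PGC-1 genes and Ppara were the lowest, with control medians of 10.7 TPM for Ppargc1b, 7.38 TPM for Ppargc1a and 3.51 TPM for Ppara, again with overlapping neighbours. In the knockout the median of Pnrc1 was 110.0 TPM and that of Vdr 57.4 TPM, so that Pnrc1 lay above Vdr there by its median, whereas in the control it lay below.

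**Figure D2:**
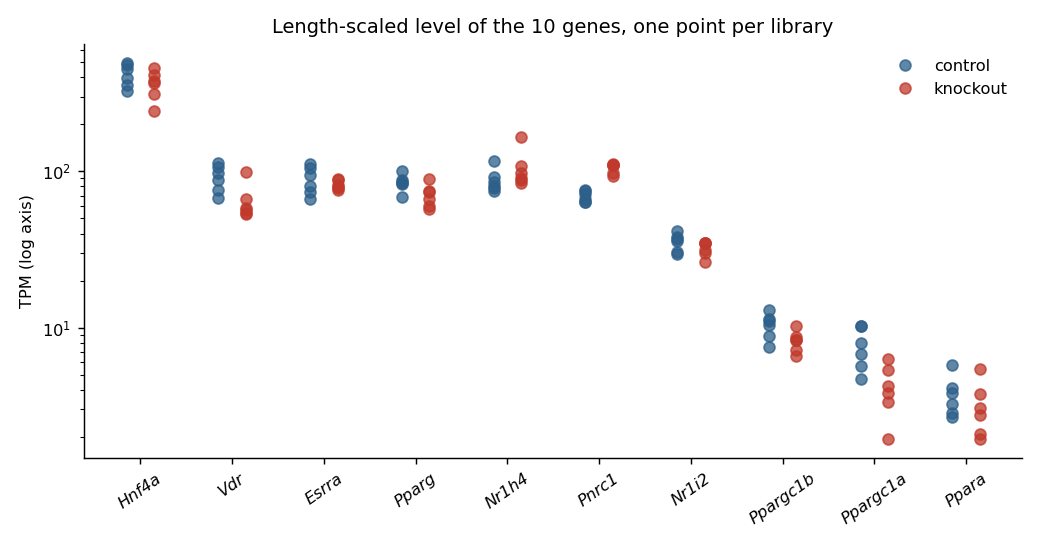
TPM (log axis) of the 10 genes, ordered by their control median, with 1 point per library in 6 control (blue) and 6 knockout (red) libraries. Hnf4a sits above all other genes, at 327 to 494 TPM in the controls, and Ppara is lowest, at 2.70 to 5.77 TPM.

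Among the coactivators, Pnrc1 (ENSMUSG00000040128) was the gene that passed. The knockout libraries held 79.9 CPM at the lowest, 92.6 CPM at the median and 107 CPM at the highest. The controls held 57.6, 63.8 and 69.3 CPM. Every knockout library was thus above every control library, a separation in this direction that 0.882% of tested genes showed. Its mean was 92.4 ± 9.84 against 63.2 ± 5.0 CPM (SD), 146% of the control. Its log2 fold change was 0.55 ± 0.09 (SE), with an edgeR adjusted p of 0.0425. Without both replicates 4 it was 0.55 with an edgeR adjusted p of 0.00546. The same fit gave an adjusted p between 0.0538 and 0.130 when knockout replicate 1, 2, 3, 5 or 6 or control replicate 1, 2, 3 or 5 was left out. In those fits 0 genes were called higher over all tested genes. Over all fits without 1 library the log2 fold change of Pnrc1 was 0.50 to 0.59. The authors' deposited table gave Pnrc1 a log2 fold change of 0.61 and an adjusted p of 1.29e-06.

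Ppargc1a (ENSMUSG00000029167), whose protein PGC-1α raises mitochondrial and gluconeogenic gene transcription, had the largest difference of the 10 genes but did not pass. The knockout libraries ran from 4.91 to 16.0 CPM with a median of 11.8 CPM, and the controls from 12.6 to 30.4 CPM with a median of 20.5 CPM. Control replicate 4, at 12.6 CPM, was the only control within the knockout range, and knockout replicate 4 was the highest knockout. The knockout mean was 52.4% of the control mean (11.3 ± 3.85 against 21.5 ± 6.53 CPM, SD). On the log2 scale the fold change was -0.93 ± 0.26 (SE), with an edgeR adjusted p of 0.0697. It was -1.06 without knockout replicate 4 alone and -1.05 without control replicate 4 alone (edgeR adjusted p = 0.0353 and 0.0312). Without both replicates 4 it was -1.18 ± 0.25, with an edgeR adjusted p of 0.0144. The authors' deposited table gave an adjusted p of 0.0176.

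Ppargc1b (ENSMUSG00000033871), which encodes the related PGC-1β, ran from 13.5 to 18.6 CPM in the knockout (median 15.9 CPM) and from 15.3 to 25.5 CPM in the control (median 22.3 CPM). Of the controls 4 lay above all knockout libraries, and control replicates 4 and 6 lay among them. This was a log2 fold change of -0.39 ± 0.13 (SE; edgeR adjusted p = 0.107). It stayed just short of the threshold without both replicates 4, at -0.46 (edgeR adjusted p = 0.0549).

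Vdr (ENSMUSG00000022479), the vitamin D receptor, showed the largest difference among the 7 receptors, and its call changed with the test and with knockout replicate 4. The knockout libraries ran from 120.2 to 234 CPM with a median of 136 CPM, and the controls from 164 to 263 CPM with a median of 231 CPM. Of the knockout libraries 5 lay between 120.2 and 145 CPM, below all 6 controls, and knockout replicate 4 lay at 234 CPM, within the controls. The means were 149.9 ± 41.9 and 220.3 ± 42.2 CPM (SD), a log2 fold change of -0.56 ± 0.17 (SE) with an edgeR adjusted p of 0.0857. Without knockout replicate 4 the log2 fold change was -0.72 (edgeR adjusted p = 0.0221). Without both replicates 4 it was -0.78 ± 0.13 (edgeR adjusted p = 0.00506). Leaving out knockout replicate 4 changed the calls of many genes, with 870 higher and 402 lower against 4 and 4 with all 12 libraries. With all 12 libraries Vdr passed in the DESeq2 test (adjusted p = 0.0353) and in the authors' deposited table (adjusted p = 0.0456).

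Of the fatty acid receptors, Pparg (ENSMUSG00000000440), which is abundant in colonocytes and in fat cells, ran from 53.9 to 89.4 CPM in the knockout (median 71.0 CPM) and from 68.5 to 99.6 CPM in the control (median 88.4 CPM). The overlap again came from replicates 4, the highest knockout and the lowest control. The log2 fold change was -0.32 ± 0.13 (SE; edgeR adjusted p = 0.152), and -0.47 ± 0.11 without both replicates 4 (edgeR adjusted p = 0.0203). Ppara (ENSMUSG00000022383), the receptor that drives fatty acid oxidation in fasting liver, was scarce, with 49 to 155 counts per library. It ran from 2.96 to 8.15 CPM in knockouts and from 3.81 to 8.89 CPM in controls, with wide overlap. The log2 fold change was -0.35 ± 0.26 (SE; edgeR adjusted p = 0.470). It was -0.20 without control replicate 3, -0.59 without knockout replicate 4 and -0.68 without both replicates 4 (edgeR adjusted p = 0.750, 0.127 and 0.0630).

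Hnf4a (ENSMUSG00000017950) ran from 534 to 819 CPM in the knockout (median 623 CPM) and from 602 to 898 CPM in the control (median 814 CPM). Knockout replicate 4 lay among the higher controls and control replicates 4 and 6 among the knockouts. Its log2 fold change was -0.27 ± 0.13 (SE; edgeR adjusted p = 0.235), and -0.39 without both replicates 4 (edgeR adjusted p = 0.0560). Nr1i2 (ENSMUSG00000022809), the xenobiotic receptor PXR, ran from 35.9 to 52.2 CPM in knockouts and from 39.9 to 57.3 CPM in controls. Its log2 fold change was -0.20 ± 0.12 (SE; edgeR adjusted p = 0.341). Esrra (ENSMUSG00000024955) ran from 83.0 to 99.7 CPM in knockouts and from 79.3 to 122 CPM in controls, with knockouts inside the control range. Its log2 fold change was -0.16 ± 0.12 (SE) with an edgeR adjusted p of 0.434. Its reads are uncertain because the gene Trmt112 overlaps it on the other strand and the use of strand in counting is not given. Genes on the other strand also overlap Ppargc1a, Ppargc1b, Pparg and Hnf4a. None of those is among the genes counted here, so their share of the reads is not known.

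Nr1h4 (ENSMUSG00000047638), the bile acid receptor FXR, was the other gene with a value above 0. The knockout libraries ran from 85.5 to 194 CPM with a median of 100.2 CPM, and the controls from 83.0 to 126 CPM with a median of 91.6 CPM. Replicate 3 was the highest library in both genotypes, at 194 CPM among knockouts and 126 CPM among controls, while the next libraries stood at 108 and 96.7 CPM. Its log2 fold change was 0.23 ± 0.19 (SE; edgeR adjusted p = 0.528), and 9.84e-05 without knockout replicate 3. Slc10a2, the bile acid importer of the ileum, was also highest in both replicates 3, at 104 and 34.5 CPM against at most 26.3 and 12.8 CPM in the other knockouts and controls. Slc51a, a subunit of the bile acid exporter, was highest there as well, at 31.5 and 24.5 CPM against at most 18.4 and 8.19 CPM. Fabp6, another ileal bile acid gene, was highest among the knockouts in replicate 3 (1.12 CPM) but not among the controls, where replicate 3 held 1.15 CPM and replicate 1 held 3.45 CPM. Slc10a2 and Slc51a were set beside Nr1h4 after their values were seen, and no source used here gives the colon region of each sample.

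**Figure D3:**
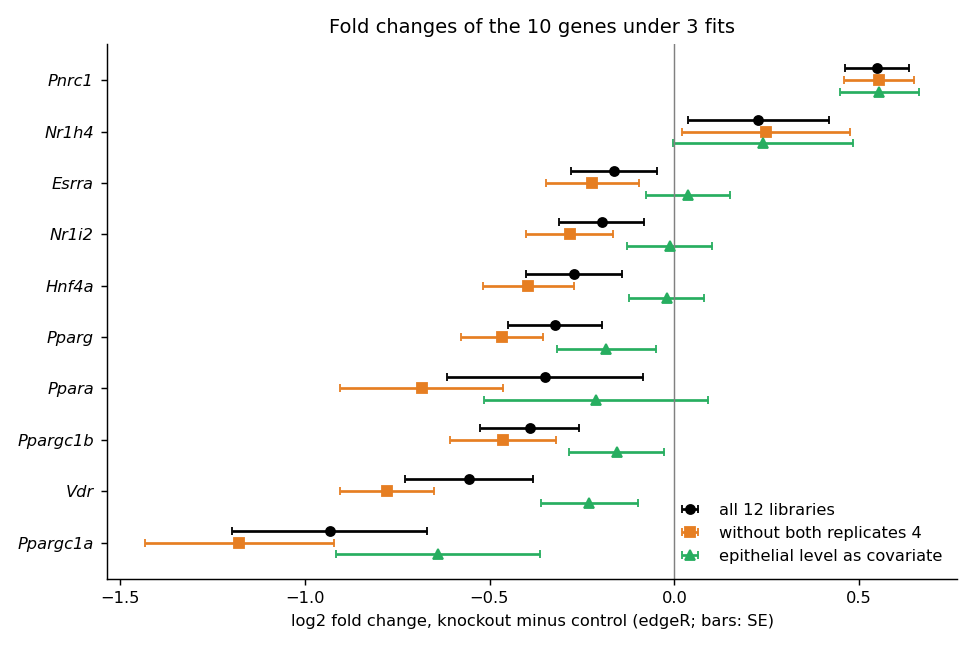
Log2 fold change, knockout minus control, with its SE, for the 10 genes with all 12 libraries (black circles), without both replicates 4 (orange squares) and with the epithelial marker level as a covariate (green triangles). Ppargc1a moves from -0.93 to -1.18 and to -0.64, whereas Pnrc1 stays at 0.55 in all 3 fits.

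Leaving out both replicates 4, chosen after seeing the data, left 4 of the 10 genes with no overlap between the genotypes: Pnrc1 above (6.19% of all tested genes) and Ppargc1a, Vdr and Pparg below (4.29%). Over all tested genes 10.5% did not overlap in these 10 libraries, against 1.52% in all 12. In that fit Ppargc1a, Vdr and Pparg were called lower, 3 of 10 genes where 4.88% of all tested genes were, and Pnrc1 was called higher, 1 of 10 where 8.4% were. Leaving out either of the other extreme libraries did not bring these 2 genes past the threshold: without knockout replicate 2 Ppargc1a was at -0.78 and Vdr at -0.50 (edgeR adjusted p = 0.106 and 0.157). Without control replicate 6 Ppargc1a was at -0.97 and Vdr at -0.63 (edgeR adjusted p = 0.0671 and 0.0574). Over all 12 libraries the DESeq2 test called Pnrc1 higher (7.66% of all tested genes) and Ppargc1a and Vdr lower (2.98% of all tested genes). The authors' deposited table called Pnrc1 higher and Ppargc1a and Vdr lower, where 4.65% and 1.7% of its genes were called (6.35% in all). At an edgeR threshold of 0.1 the 10 genes gave the same counts, 1 higher and 2 lower, where 6.59% and 3.02% of all tested genes passed.

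The levels of 7 of the 10 genes were correlated with the epithelial marker level over the 12 libraries. Both genotypes were pooled and permuted together, so r and p over the 12 libraries also include the difference between genotypes. The relation was computed for each gene with the mean log2 CPM of 12 epithelial and of 7 fat cell markers (without Pck1, which fat cells also express), 20 relations in all, with p-values from 100000 permutations adjusted over the 20. For Hnf4a Pearson's r with the epithelial level was 0.90 (permutation p = 4.0e-05, adjusted p = 0.00080) and Spearman's rho 0.90 (permutation p = 0.00016, adjusted p = 0.0032). It was 0.88 without the 2 libraries farthest from the median (control replicates 1 and 5), 0.81 within the 6 knockouts and 0.94 within the 6 controls. For Vdr r was 0.87 (permutation p = 0.00027, adjusted p = 0.0027) and rho 0.83 (permutation p = 0.0015, adjusted p = 0.0150). Vdr kept r at 0.84 without those 2 libraries, at 0.85 within the knockouts (exact permutation p = 0.0611) and at 0.92 within the controls. Within the knockouts its rho was 0.49 (exact permutation p = 0.356), and knockout replicate 4 was the highest of them in both Vdr and the epithelial level. An r at least as high was reached by 0.292% of tested genes for Hnf4a and by 0.633% for Vdr. The share was 1.43% for Ppargc1b, 3.82% for Nr1i2, 4.33% for Esrra, 7.92% for Pparg and 8.11% for Ppargc1a.

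For Ppargc1b r was 0.84 (permutation p = 0.00075, adjusted p = 0.0050) and rho 0.77 (permutation p = 0.00478, adjusted p = 0.0319). Within the controls r was 0.95 (exact permutation p = 0.00833) and rho 0.77 (exact permutation p = 0.103). Within the knockouts r was 0.09 (exact permutation p = 0.872). Nr1i2 (r = 0.77, permutation p = 0.00375, adjusted p = 0.0180; rho = 0.68, permutation p = 0.0182, adjusted p = 0.0605) had an r of 0.90 within the controls and of 0.40 within the knockouts. Esrra (r = 0.75, permutation p = 0.00451, adjusted p = 0.0180; rho = 0.51, permutation p = 0.0933, adjusted p = 0.266) had an r of 0.88 within the controls and of -0.07 within the knockouts. Pparg (r = 0.68, permutation p = 0.0138, adjusted p = 0.0394; rho = 0.69, permutation p = 0.0168, adjusted p = 0.0605) went the other way, with r at 0.94 within the knockouts and 0.36 within the controls. Ppargc1a (r = 0.68, permutation p = 0.0136, adjusted p = 0.0394; rho = 0.71, permutation p = 0.0126, adjusted p = 0.0605) had an r of 0.81 within the knockouts and of 0.39 within the controls. Each of these within-genotype values rests on 6 libraries and was not adjusted. Exact permutation gave r a p of 0.0167 for Nr1i2 and 0.0194 for Esrra within the controls. Within the knockouts it gave 0.00833 for Pparg and 0.0694 for Ppargc1a. For rho the exact permutation p-values were 0.0333, 0.175, 0.0333 and 0.0583, in that order. Whether r differed between the genotypes was not tested. Without control replicates 1 and 5 none of these 5 passed over the 10 remaining libraries. In those libraries r was lower for Ppargc1b (0.71), Nr1i2 (0.62) and Esrra (0.53), and higher for Pparg (0.77) and Ppargc1a (0.73). Pnrc1, Ppara and Nr1h4 did not pass with the epithelial level (r = -0.50, 0.41 and -0.12, permutation adjusted p = 0.243, 0.367 and 0.825). The fat cell level passed with none of the 10 genes. For Pparg, the master regulator of fat cells, r with it was 0.20 (permutation p = 0.523, adjusted p = 0.805; rho = 0.02, permutation p = 0.956, adjusted p = 0.973).

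**Figure D4:**
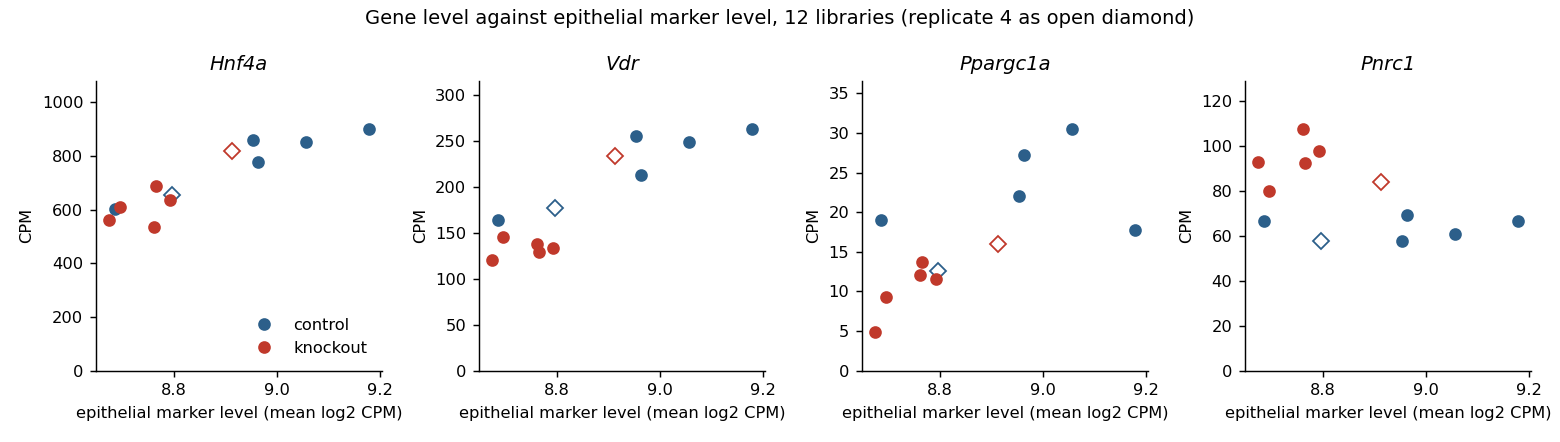
CPM of 4 genes (vertical axes, from 0) against the mean log2 CPM of 12 epithelial markers (horizontal axes) in 6 control (blue) and 6 knockout (red) libraries, with replicate 4 of each genotype as an open diamond. Hnf4a and Vdr climb with the epithelial level (r = 0.90 and 0.87), and all knockout points of Pnrc1 lie above all control points, with knockouts at epithelial levels of 8.67 to 8.91 and 4 of the 6 controls at higher levels.

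With the epithelial marker level as a covariate, also chosen after seeing the data, the log2 fold change of Hnf4a was -0.021 ± 0.10 (SE) in place of -0.27. That of Nr1i2 was -0.013 in place of -0.20, and that of Esrra was 0.036 in place of -0.16. Vdr stood at -0.23 ± 0.13 and Ppargc1a at -0.64 ± 0.28, both less than without the covariate. Pnrc1 was at 0.55 ± 0.11, as without it, but its edgeR adjusted p was 0.495. In this fit 0 of 10 genes were called, and over all tested genes 0% were called higher and 0.00695% lower.

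Of 49 genes of the wider nuclear receptor family, the 7 receptors above included, 38 had enough counts and 0 were called in either direction. Of the 38, 15 were above 0 and 23 below (45.1% and 54.9% of all tested genes), and the median was -0.08. At an unadjusted p under 0.05 there were 3 higher and 7 lower receptors of 38, where the shares over all tested genes were 13.1% and 9.48%. Without the 7 receptors 14 were above 0 and 17 below of 31 (median -0.042). Of these 31, 3 were higher and 5 lower at an unadjusted p under 0.05. Esrrg, a relative of Esrra that drives oxidative metabolism, had the smallest p: it averaged 0.662 ± 0.333 CPM in knockouts and 2.27 ± 0.534 CPM in controls (SD), and its log2 fold change was -1.78 ± 0.35 (SE; edgeR adjusted p = 0.0512). Nr3c2, the mineralocorticoid receptor that governs sodium uptake in the distal colon, stood at 60.1 ± 12.1 against 91.3 ± 13.4 CPM (log2 fold change -0.60 ± 0.14, SE; edgeR adjusted p = 0.0536). Nr1d2, the clock repressor REV-ERBβ, stood at 28.8 ± 13.2 against 58.4 ± 10.5 CPM (log2 fold change -1.02 ± 0.25, SE; edgeR adjusted p = 0.0569).

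Of 23 coregulators, the 3 coactivators above included, all were tested and 1 (Pnrc1) was called higher and 0 lower (0.0278% of all tested genes in each direction). Of the 23, 17 were below 0 (median -0.06), as were 54.9% of all tested genes. Without the 3 coactivators 15 of 20 were below 0 (median -0.058). Pnrc1, Ppargc1a and Ppargc1b had the 3 smallest p of the list. The corepressor gene Ncor1 was at -0.037 ± 0.10 (log2 fold change, SE; edgeR adjusted p = 0.870), and Pnrc2, the paralog of Pnrc1, at -0.023 ± 0.13 (edgeR adjusted p = 0.941). The difference between Pnrc1 and Pnrc2 was not tested.

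**Figure D5:**
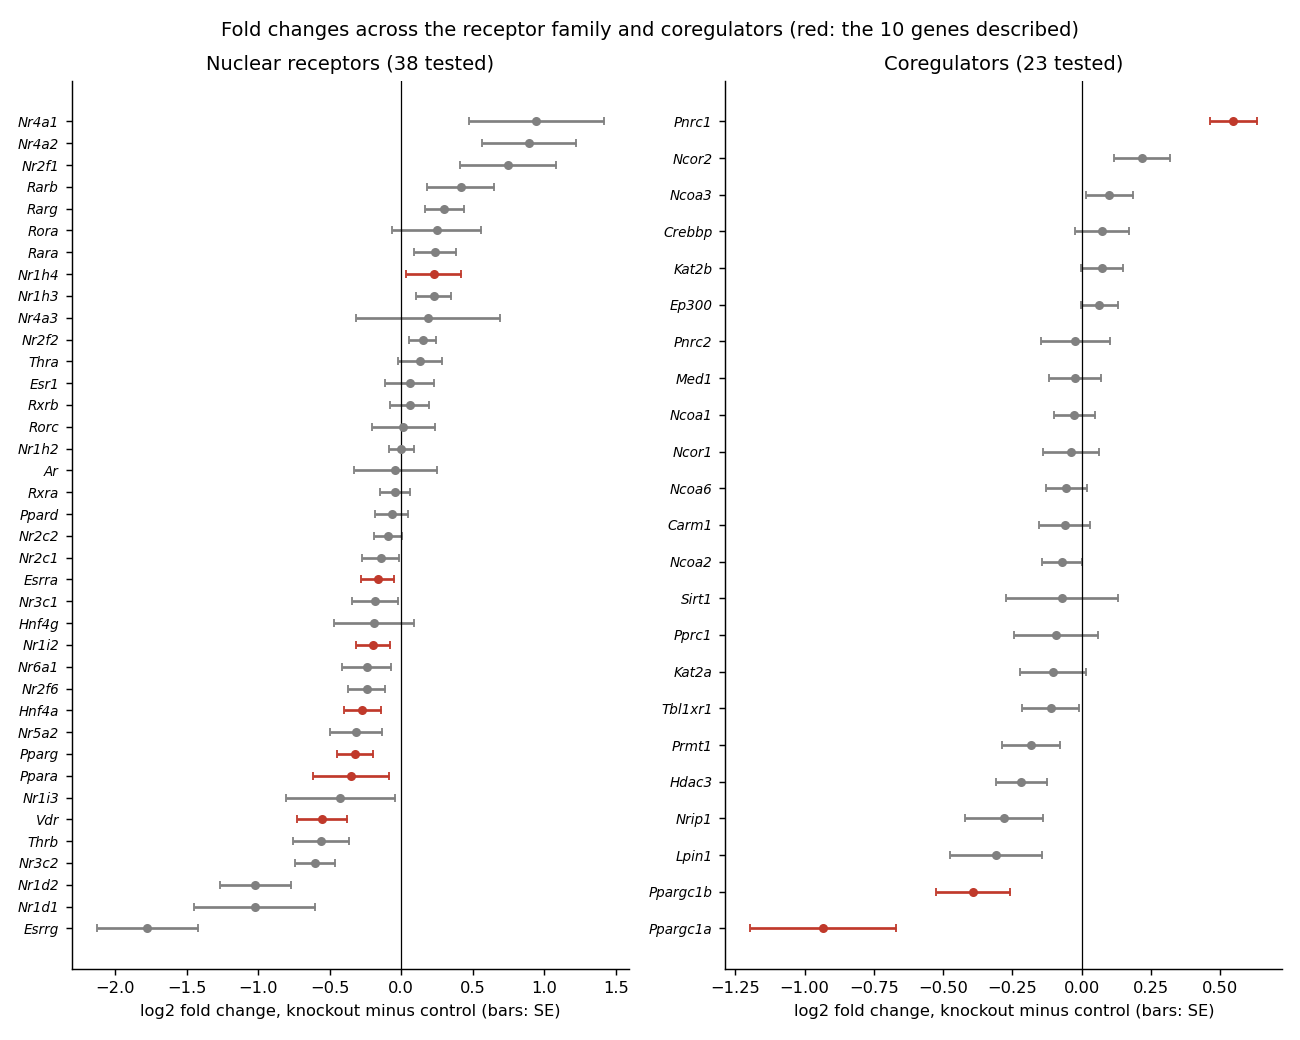
Log2 fold change, knockout minus control, with its SE, of 38 tested nuclear receptor genes (left) and 23 tested coregulator genes (right), sorted by value, with the 10 genes described here in red. Esrrg is lowest among the receptors at -1.78, and Pnrc1 and Ppargc1a mark the ends of the coregulator list at 0.55 and -0.93.

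Lists of known targets of each regulator were read beside it, and edgeR called 0 of their genes in either direction. Over all tested genes 54.9% were below 0 and 45.1% above. At an unadjusted p under 0.05 the shares over all tested genes were 13.1% higher and 9.48% lower. Of 24 tested genes of the PGC-1 and ERR program, 22 were below 0, with a median of -0.17. With the epithelial level as a covariate that median was -0.053. In the main fit 2 higher and 6 lower genes had an unadjusted p under 0.05. The respiratory chain subunit gene Ndufs1 stood at -0.28 ± 0.08 and Idh3a, a subunit of the TCA cycle isocitrate dehydrogenase, at -0.40 ± 0.12 (log2 fold change, SE; edgeR adjusted p = 0.0707 and 0.0836). The abundant ATP synthase gene Atp5b was at -0.21 ± 0.10. Sod2, the mitochondrial superoxide dismutase, which inflammatory signals also induce, was the gene with the smallest p and lay on the other side, at 174 ± 50.3 against 97.8 ± 14.3 CPM (log2 fold change 0.83 ± 0.17, SE; edgeR adjusted p = 0.0531).

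PPAR targets lay more often above 0, in 18 of 26 tested genes (45.1% of all tested genes), with a median of 0.13. The median ran from 0.034 (without knockout replicate 3) to 0.23 (without control replicate 4) when 1 library was left out. At an unadjusted p under 0.05 there were 4 higher and 2 lower genes, where the shares over all tested genes were 13.1% and 9.48%. Angptl4, an inhibitor of lipoprotein lipase that hypoxia also induces, stood at 46.3 ± 32.3 against 12.3 ± 7.89 CPM (log2 fold change 1.91 ± 0.52, SE; edgeR adjusted p = 0.0636). Plin2, which coats lipid droplets, was at 0.34 ± 0.12, and Ehhadh, an enzyme of peroxisomal fatty acid oxidation, at -0.41 ± 0.16. The abundant Txnip was at 0.28 ± 0.13.

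HNF4α targets were split, 9 above and 11 below 0 of 20 tested (45.1% and 54.9% of all tested genes), with a median of -0.11. The list also holds a member of the 10 genes. Without that member 9 were above and 10 below 0 of 19, with a median of -0.052. The median of the whole list turned to 0.043 without the low-count filter. It ran from -0.17 (without knockout replicate 3) to -0.019 (without knockout replicate 6) when 1 library was left out. In each direction 4 genes had an unadjusted p under 0.05, where 13.1% of all tested genes were higher and 9.48% lower. Apoc2, an activator of lipoprotein lipase, was at 0.84 ± 0.23, the glycerol-3-phosphate dehydrogenase gene Gpd1 at -0.43 ± 0.13 and the transcription factor gene Maf at 0.53 ± 0.17 (log2 fold change, SE). The abundant epithelial genes Muc13 and Cdh17 were at -0.05 ± 0.14 and 0.01 ± 0.09. Of 9 tested FXR targets 4 were above 0 and 5 below (45.1% and 54.9% of all tested genes), with a median of -0.10. The median turned to 0.45 without control replicate 6 and to 0.18 with a mean CPM of at least 1. At an unadjusted p under 0.05 there were 2 higher and 1 lower, where the shares over all tested genes were 13.1% and 9.48%. Nos2, the inducible nitric oxide synthase of inflamed tissue, was at 1.02 ± 0.27, Fabp6, a bile acid carrier of the ileum, at -1.59 ± 0.55, Slc10a2 at 1.39 ± 0.63 and Il18 at -0.30 ± 0.23. The main intestinal FXR target Fgf15 had 0 counts in all 12 libraries, and Nr0b2, another direct target, had at most 4.

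Of 14 listed VDR targets 8 had enough counts to be tested. All 8 were below 0 (54.9% of all tested genes), with a median of -0.20. The median ran from -0.34 (without knockout replicate 3) to -0.15 (without control replicate 3) when 1 library was left out. It was -0.16 without the low-count filter and -0.21 with the epithelial level as a covariate. Of the 8 genes 2 had an unadjusted p under 0.05 and lay below 0, as did 9.48% of all tested genes. Slc37a2, a sugar phosphate transporter, ran from 5.54 to 17.2 CPM in knockouts and from 11.99 to 60.8 CPM in controls (log2 fold change -1.76 ± 0.43, SE; edgeR adjusted p = 0.0569). Its 3 lowest controls, replicates 3, 4 and 6, came closest to the knockouts. Trpv6, the calcium channel of vitamin D dependent uptake, was at 0.778 ± 1.41 against 2.98 ± 1.67 CPM (log2 fold change -1.92 ± 0.83, SE; edgeR adjusted p = 0.192). Cldn2 was at -0.22 ± 0.11 and Cdkn1a at -0.10 ± 0.11. Cyp24a1, the vitamin D degrading enzyme that is the classic VDR target, had at most 2 counts in a library and was not tested.

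PXR targets had the lowest median of the target lists, -0.42, with 7 of 11 tested genes below 0 (54.9% of all tested genes). Of the 11 genes 3 lay below 0 with an unadjusted p under 0.05, as did 9.48% of all tested genes. The median was -0.27 without knockout replicate 6 and -0.14 with the epithelial level as a covariate. The exporter genes Abcc3 and Abcb1a were at -0.44 ± 0.13 and -0.67 ± 0.29 (log2 fold change, SE; edgeR adjusted p = 0.0820 and 0.193). The detoxification gene Gstm1 was at -0.42 ± 0.17 and the abundant Cyp2c55 at -0.57 ± 0.45. Knockout replicate 4 was the highest knockout for each of these 4 genes, at 414 CPM for Abcb1a and 1213 CPM for Cyp2c55 against at most 328 and 542 CPM in the other knockouts.

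The genes most like 3 of the members over the 12 libraries were found by the mean absolute difference between standardised log2 CPM profiles, over 13658 other genes. Nearest to Pnrc1 were Elovl4, Sema6d and Ier5, with mean differences of 0.263, 0.342 and 0.351 SD. Nearest to Ppargc1a were Myo3a, Acsl3 and Tmem236, at 0.237, 0.241 and 0.251 SD. Nearest to Hnf4a were Kcnk5, Cdx1 and Inpp5j, at 0.187, 0.219 and 0.224 SD, so its profile had closer neighbours than that of Pnrc1. Cdx1 encodes a homeobox factor of the intestinal epithelium, and Acsl3 activates fatty acids. The genotype difference is part of each profile.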

How the data were processed

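Total RNA was taken with Trizol from colon tissue of 12 mice and sequenced after library preparation with a SMARTER mRNA kit, per the labels' protocols. The authors deposited one table whose raw read counts, whole numbers for each gene in each library, were used unchanged. Per the file headers, the authors' TPM values stand beside the counts. The deposited log2 fold changes and p-values (raw and adjusted) are the authors' own, and no source used here names their test. The submitters' processing notes list GRCm38, mm10 and mm39 without roles. No source used here names the aligner, the counter or the use of strand, so gene coordinates are not printed and promoters are credited to RefSeq's build. The table held 0 columns of other samples.

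Groups and replicate numbers came from the labels. Counts were tested in R 4.3.3 with edgeR 4.0.16 (filterByExpr with a minimum count of 10, TMM, glmQLFit and glmQLFTest, knockout minus control over all 12 libraries, Benjamini-Hochberg over 14393 genes, threshold 0.05). Each SE is the fold change divided by the root of its F statistic. Log2 CPM used a prior count of 2. Procedures were tested on simulated data. The 10 genes, the gene lists and the tests were chosen with earlier results of these data known, so target and family lists are described by counts and medians without a set test. From each target or family list, genes were named if called, among the 3 smallest p or among the 2 highest mean CPM (a gene can meet several of these), except for 2 genes that are not reported here. Slc51a and the untested Fgf15, Nr0b2 and Cyp24a1 were chosen after their values were seen. Alternatives were DESeq2 1.42.0, limma 3.58.1 (voom, and trend on log2(TPM + 1) and log2(TPM + 0.1)), other scalings and filters, the replicate number as a block, and each library left out. Over all tested genes same-numbered libraries did not deviate together, so the block is not part of the main model. Depth was 15348192 to 19138507 counts a library. The lowest chi-square per gene over 66 library combinations was 19.4, so no library was a copy of another. Each p-value measures the spread between these mice only.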

Additional observations from a re-analysis of the deposited data

Results flagged for a closer look

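In 3 of 20 groups of 6 libraries, 1 library lay far from the other 5 by Dixon's criterion at 95%, which chance alone meets in about 1 group in 20. Vdr in the knockout had 1 high library, replicate 4, at 234 CPM against 145 CPM in the next. Nr1h4 had a high replicate 3 in both genotypes, at 194 CPM against 108 CPM in the knockout and at 126 CPM against 96.7 CPM in the control.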

How the results depend on the processing

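Pnrc1 was above 0 and Ppargc1a, Ppargc1b, Ppara, Pparg, Hnf4a, Vdr and Nr1i2 below 0 in all 25 other settings, while Esrra turned to 0.036 with the epithelial level as a covariate. Leaving out single libraries moved the count of higher genes among the 10 between 0 and 1, of lower ones between 0 and 2, and their median between -0.38 and -0.22. Over all genes such settings gave 0 to 870 higher and 2 to 402 lower genes in place of 4 and 4. The extremes came without knockout replicate 4 (870 and 402), control replicate 4 (728 and 279) and control replicate 6 (272 and 101), and the cause was not tested. The replicate block called 0 of the 10 higher (Pnrc1 0.55, edgeR adjusted p 0.259) and 0 higher and 1 lower gene in all. Correlations between same-numbered libraries over all tested genes were -0.50 to 0.08 over 6 pairs. Of the knockouts 0 correlated best with their own number. Single genes can differ from this: Nr1h4 was highest in replicate 3 of both genotypes, and its SE was 0.11 with the block against 0.19 without it. The epithelial covariate called 0 of the 10 higher and moved their median to -0.088, with 0 higher and 1 lower gene in all.

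Lower genes among the 10 numbered 2 with DESeq2, 3 without both replicates 4 and 2 at a threshold of 0.1. All genes called (higher and lower) numbered 33 and 19 with DESeq2's size factors, 230 and 45 with library size only, 1103 and 429 with DESeq2, 30 and 19 with voom, 355 and 48 with log2(TPM + 1), 365 and 48 with log2(TPM + 0.1), 1209 and 702 without both replicates 4, 32 and 21 with robust quasi-likelihood, and 949 and 435 at a threshold of 0.1.

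Some medians changed sign: HNF4α targets to 0.043 without the filter and 0.051 with the epithelial covariate, coregulators to 0.0087 on log2(TPM + 1) and 0.0085 on log2(TPM + 0.1), and FXR targets to 0.18 with a mean CPM of at least 1, 0.13 on log2(TPM + 1), 0.068 with the replicate block and 0.45 without control replicate 6 (leaving out single libraries gave -0.18 to 0.45).

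With the epithelial level, r on log2(TPM + 1) no longer passed for Ppargc1a (0.36), Pparg (0.45) and Nr1i2 (0.66). Without control replicates 1 and 5 it no longer passed for Ppargc1a (0.73), Ppargc1b (0.71), Pparg (0.77), Nr1i2 (0.62) and Esrra (0.53), and Nr1h4 turned to 0.15. With the fat cell level, where no relation passed, r changed sign without knockout replicates 1 and 6 for Ppargc1a (-0.11), Ppara (-0.35), Pparg (-0.23), Vdr (-0.42), Nr1i2 (-0.12), Esrra (-0.31) and Pnrc1 (0.10), and on log2(TPM + 1) for Vdr (-0.12) and Esrra (-0.16). Depth limits Ppara most, with 49 to 155 counts per library.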
